A study of Oryza sativa Japonica Group with 4 samples.

Results

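The genes described here are the MAP kinase cascade genes of the rice anther, taken as every gene whose name in the count tables contains "mitogen-activated protein kinase" or "MAP kinase", in upper or lower case. The rule found 22 of 35825 genes. By their names, 14 are MAP kinases, 7 are MAP kinase kinases and 1 is a MAP kinase phosphatase. No kinase of the uppermost tier carries these words, so the MAP kinase kinase kinases entered only as neighbours of the list. Of the 22 genes, 20 were counted as expressed, with 10 counts or more in any of the 4 libraries, and these 20 had 18 counts or more in every library. The rule uses names only and no measured level.

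MAP kinase cascades pass a signal from receptors at the cell surface to the nucleus and cytoplasm. A MAP kinase kinase kinase phosphorylates a MAP kinase kinase, this phosphorylates a MAP kinase, and the MAP kinase phosphorylates transcription factors and other proteins until a phosphatase switches it off. Because the switch is phosphorylation, the level of a transcript says how much RNA of a part is present, and not how much protein there is or how active it is. In Arabidopsis the cascade that ends in MPK3 and MPK6 acts in stomatal patterning, anther lobe formation, pollen and defence, and in rice its members are best known from blast resistance, stress responses and grain size.

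RNA was sequenced from anthers of *sstl-s* plants, whose panicles are sterile, and of *SSTL-F* plants, whose panicles are fertile and which GEO's labels give as the control. Both are sister segregants of the semi-sterile line *sstl*, found in a rice T-DNA collection of the variety Tainung 67, and the sterility was described as not following the T-DNA, so the gene behind it is not known. Anthers were taken at the late pollen mitosis stage (LpM) and at the earlier young microspore stage (YM) from plants of a growth chamber, and the number of plants or panicles behind an RNA sample is not given in the sources used here. There was 1 library for each genotype and stage. No difference below has a replicate check and no p-value is given. The stage rests on the label, and a sterile anther labelled LpM need not hold the cells of a fertile one.

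Total counts were 11076871 in *sstl-s* LpM and 11523243 in *SSTL-F* LpM, and 11559430 in *sstl-s* YM and 10161675 in *SSTL-F* YM. At this depth a gene with no count in a library may still be present at up to 0.246 to 0.309 CPM (counts scaled to a common effective library size), the level of 3 counts. Marker genes of cell types that an anther can hold had different summed levels in the libraries. The 12 tapetum markers that could be matched, genes of the cell layer that feeds the microspores, summed to 12147 CPM in *sstl-s* LpM and 14307 in *SSTL-F* LpM, and to 5936 in *sstl-s* YM and 11505 in *SSTL-F* YM. Single tapetum markers did not all run the same way. Their log2 fold changes of *sstl-s* over *SSTL-F* ranged from -0.60 to 1.28 at LpM, with a median of -0.29. At YM they ranged from -1.72 to 0.23, with a median of -0.66. The lowest value at LpM is that of WAX-DEFICIENT ANTHER 1. The study's text ties the mutant of this gene to fatty acids of the anther epidermis and pollen wall, so it may not mark the tapetum alone. The pair of late pollen genes summed to 50.6 CPM in *sstl-s* LpM and 196 in *SSTL-F* LpM, and to 9.43 in *sstl-s* YM and 86.3 in *SSTL-F* YM. Both had fewer CPM in *sstl-s* than in *SSTL-F* at each stage, but by stage they ran opposite ways in *SSTL-F*, where Os09g0381400 had 162 CPM at LpM and 8.86 at YM, and Os09g0388400 had 34.5 CPM at LpM and 77.5 at YM. For 6 meiosis genes the sums were 211 and 124 CPM in *sstl-s* and *SSTL-F* at LpM, and 370 and 287 at YM. The 22 genes of green tissue, 20 of them expressed, had sums of 957 and 960 CPM in *sstl-s* and *SSTL-F* at LpM, and 495 and 406 at YM. Such sums weigh abundant genes most. Over the 20 expressed green tissue genes the median log2 fold change of *sstl-s* over *SSTL-F* was -0.49 at LpM and 0.14 at YM.

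Levels of different genes were set side by side per transcript length, in the authors' RPKM. The authors' RPKM has a scale of its own in each library, so it gives here the order of the genes within a library and no fold between libraries. MPK4, a MAP kinase known from stress responses of rice, stood first of the 20 expressed genes in *sstl-s* LpM, *SSTL-F* LpM and *SSTL-F* YM, at 56.6, 52.7 and 53.1 RPKM. In *sstl-s* YM it came 4 in the order, with 48.6 RPKM, and MPK7 stood first with 57.7 RPKM. MPK6_1, the chromosome 6 gene known as OsMAPK6 that acts in grain size and defence, had 52.2 RPKM in *sstl-s* LpM and 48.4 in *SSTL-F* LpM, and at YM 50.2 in *sstl-s* and 46.5 in *SSTL-F*. Among the kinase kinases MKK6 led in every library, with 48.5 RPKM in *sstl-s* and 35.3 in *SSTL-F* at LpM and with 48.8 and 48.9 RPKM at YM, at the height of the most abundant kinases. The phosphatase MKP1 had between 22.1 and 29.5 RPKM.

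At the low end were BIMK2, MPK17 and MPK2 among the kinases, with mean levels over the 4 libraries of 2.13, 2.97 and 2.00 RPKM, and MKK10-2 among the kinase kinases with 2.57 RPKM. MSRMK2, the stress-responsive kinase that other work names OsMPK3, averaged 14.3 RPKM, below MPK6_1 at 49.3 RPKM. Both are the rice kinases nearest to the Arabidopsis MPK3 and MPK6 pair. The kinase kinases MKK1, MKK3 and MKK5 averaged 12.1, 10.7 and 5.68 RPKM. MKK10-1 had 0 counts in all 4 libraries. MKK10-3 had 0 counts in *sstl-s* and 4 in *SSTL-F* at LpM, and 7 and 3 counts at YM, which is under the minimum of 10 counts, and no fold is given for either gene.

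**Figure D1:**
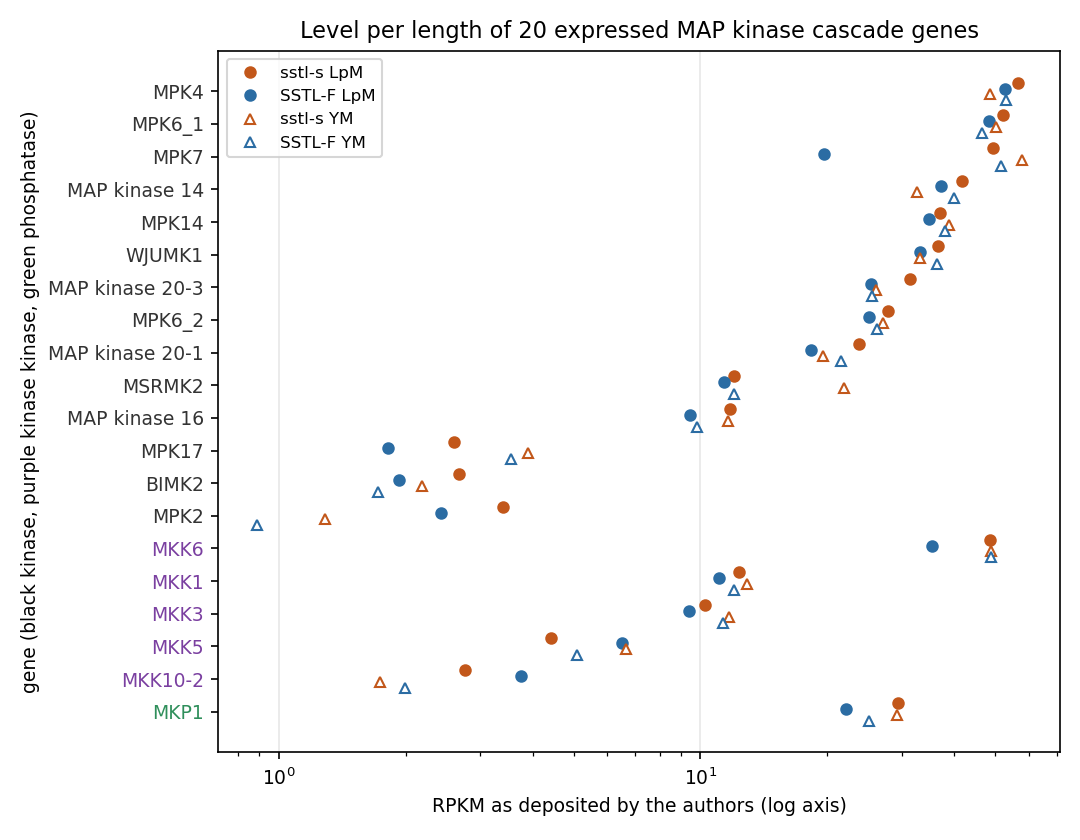
Level of the 20 expressed MAP kinase cascade genes in RPKM as the authors deposited it (log axis), 1 symbol per library, with filled circles for LpM, open triangles for YM, orange for *sstl-s* and blue for *SSTL-F*; gene names are black for kinases, purple for kinase kinases and green for the phosphatase. MPK7 has rank 10 of the 20 genes in *SSTL-F* LpM, and ranks 3, 1 and 2 in *sstl-s* LpM, *sstl-s* YM and *SSTL-F* YM. RPKM of 1 gene is not to be read as a fold between libraries.

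The first question was how the cascade of sterile anthers differed from that of fertile anthers at LpM. MPK7 was the gene that stood out: it was 2.15-fold higher in *sstl-s* LpM than in *SSTL-F* LpM, and it was the only one of the 20 expressed members past 2-fold there. Over all 24543 expressed genes, 4.45% passed 2-fold on the higher side at LpM and 6.58% on the lower side, so 1 of 20 higher and 0 of 20 lower is close to what all genes gave on the higher side. Among genes with 50 counts or more in any library, 6.78% passed it in either direction. The median log2 fold change of the 20 members was -0.07, against 0.01 for all expressed genes. The members moved little, with a median size of 0.148 in log2 against 0.296 for all expressed genes and 0.252 for the 18877 genes with 50 counts or more in any library, a filter that all 20 members passed.

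MPK7 is a MAP kinase that rice work places below MKK3 in the response to blight bacteria. Its row lay on chromosome 5, between Os05g0566300 and Os05g0566600. The gene had 1524 counts in *sstl-s* LpM and 714 in *SSTL-F* LpM, and 1953 in *sstl-s* YM and 1571 in *SSTL-F* YM. After normalization by the TMM method these were 136 and 63.3 CPM at LpM in *sstl-s* and *SSTL-F*, and 160 and 162 CPM at YM. The library that differs is thus *SSTL-F* LpM, and the other 3 lie between 136 and 162 CPM. The log2 fold change of *sstl-s* over *SSTL-F* at LpM was 1.10, with a 95% interval of 0.97 to 1.23 that covers counting error only, and whose lower end lies just under 2-fold. At YM it was -0.02 (-0.11 to 0.08), and 0.13 with an interval above 0 when scaled by library size alone. Among the 20 expressed members MPK7 had RPKM rank 3 in *sstl-s* LpM and rank 10 in *SSTL-F* LpM. It made up 13.3% of the summed CPM of the 14 kinases in *sstl-s* LpM against 6.43% in *SSTL-F* LpM, and 16.2% in *sstl-s* YM against 14.6% in *SSTL-F* YM. In whole anthers, fewer cells that make a transcript and less of it per cell cannot be told apart. *SSTL-F* LpM was also the library with the lowest meiosis sum and the highest level of Os09g0381400, though not of the other late pollen gene, and the part of cell content in the MPK7 difference was not tested.

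The other 13 kinases lay between -0.15 and 0.29 in log2 at LpM. MPK17, a kinase with little known of its role, gave the upper end, but from only 73 counts in *sstl-s* and 60 in *SSTL-F*, and its interval of -0.22 to 0.81 holds 0. MSRMK2 had 234 counts in *sstl-s* LpM and 262 in *SSTL-F* LpM, a log2 fold change of -0.15 (-0.42 to 0.10). MPK4 (1251 and 1375 counts), MPK6_1 (1103 and 1206) and MPK14 (1314 and 1462) had values of -0.13, -0.12 and -0.15, with intervals just below 0. Such small values depend on the scaling chosen. Scaled by library size alone, no kinase had an interval below 0 at LpM, and the 2 genes that did were MKK5 and MKK10-2. With DESeq2 size factors, a further scaling, the same 6 members as with TMM had intervals below 0, among them MPK4, MPK6_1, MPK14 and WJUMK1. How many of all expressed genes had such intervals was not counted. MPK6_2, the kinase of this name on chromosome 10, had 569 counts in *sstl-s* LpM and 605 in *SSTL-F* LpM, a value of -0.08 (-0.25 to 0.09). BIMK2, found through its induction by the plant activator benzothiadiazole, had 95 and 81 counts and a value of 0.24 (-0.20 to 0.68).

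In the tier above, the lowest values were those of MKK5 and MKK10-2. MKK5, a near relative in rice of the MKK4 and MKK5 pair of Arabidopsis, had 89 counts in *sstl-s* LpM and 155 in *SSTL-F* LpM, or 7.93 and 13.7 CPM. The log2 fold change was -0.79 (-1.19 to -0.41), the lowest of the 20 members and short of 2-fold. MKK10-2, linked to defence and drought signalling in rice, had 48 counts in *sstl-s* LpM and 77 in *SSTL-F* LpM, a value of -0.66 (-1.23 to -0.14). MKK6, known in rice from cold signalling and in Arabidopsis from cytokinesis, had 1002 and 861 counts, a value of 0.23 (0.09 to 0.36). For MKK3, the partner of MPK7, there were 424 counts in *sstl-s* LpM and 459 in *SSTL-F* LpM, a value of -0.11 (-0.30 to 0.09) whose interval holds 0 and ends well short of the MPK7 value. MKK1, which acts in salt signalling in rice, had 246 and 261 counts and a value of -0.08 (-0.33 to 0.18). All 5 expressed kinase kinases stayed inside 2-fold. MKP1, a phosphatase that inactivates OsMAPK6 and sets grain number in rice, had 716 counts in *sstl-s* LpM and 635 in *SSTL-F* LpM, a value of 0.18 (0.03 to 0.34).

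At YM the question was the same, at an age when the microspores of fertile anthers have just left the tetrads. No member was past 2-fold in either direction, while 8.21% of all expressed genes passed it on the higher side in *sstl-s* and 4.24% on the lower side. Of the 18877 genes with 50 counts or more in any library, as all 20 members had, 7.39% passed it in either direction. The members ranged from -0.47 to 0.69, and for 18 of the 20 the whole counting interval lay inside 2-fold, a count not made over all expressed genes. Their median was -0.10, against -0.03 for all expressed genes. Of the 20 members, 19 lay within 0.50 of 0 in log2.

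MSRMK2 was the member above that. It had 466 counts in *sstl-s* YM and 230 in *SSTL-F* YM, or 38.2 and 23.7 CPM, and the 2 LpM libraries were close to the lower of these with 20.9 CPM in *sstl-s* and 23.2 CPM in *SSTL-F*. Its log2 fold change at YM was 0.69 (0.46 to 0.92), so the whole interval lay above 0 and below 2-fold. The high library is *sstl-s* YM alone. The lowest value at YM was that of MAP kinase 14. MAP kinase 14, the gene of this name on chromosome 2, had 722 counts in *sstl-s* YM and 798 in *SSTL-F* YM, or 59.2 and 82.2 CPM, with a log2 fold change of -0.47 (-0.62 to -0.33). MAP kinase 20-1 had 769 and 763 counts with a value of -0.32 (-0.46 to -0.17), MPK4 had 1178 and 1157 counts with -0.30 (-0.42 to -0.19), and WJUMK1, named for not responding to wounding or jasmonate, had 2214 and 2186 counts with -0.31 (-0.40 to -0.23). In raw counts these 3 genes hardly differ between the *sstl-s* and *SSTL-F* libraries, and their lower normalized level comes from the larger effective size of the *sstl-s* YM library. Intervals lay below 0 for 7 members with TMM and for 4 with library size alone, these 4 being MAP kinase 14, MAP kinase 20-1, MPK4 and WJUMK1, all among the 7. With DESeq2 size factors they lay below 0 for 6 members, also all among the 7. Such intervals were not counted over all expressed genes, so these numbers are not read as a trait of the cascade. Intervals above 0 numbered 1 with TMM, that of MSRMK2, and 3 with library size alone, which adds MPK7 and MKP1. With library size alone the members' median at YM was 0.04 in place of -0.10, so its sign rests on the scaling, and the median of all expressed genes was 0.11.

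The kinase kinases of YM anthers all stayed inside 2-fold. MKK5 had 147 counts in *sstl-s* YM and 101 in *SSTL-F* YM, a log2 fold change of 0.21 (-0.16 to 0.59), opposite in sign to its value at LpM and with an interval that holds 0. MKK6, with 1103 and 994 counts, gave -0.18 (-0.30 to -0.05). MKK3, with 528 and 461 counts, gave -0.13 (-0.32 to 0.05), and MKK1 with 282 and 236 counts gave -0.07 (-0.33 to 0.18). MKK10-2 rested on 33 and 34 counts, and its value of -0.36 (-1.11 to 0.36) has an interval that holds both 0 and 2-fold lower. MKP1 stood at 0.04 (-0.11 to 0.20).

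Several kinases of medium and high level had close values in all libraries. MAP kinase 16 had 342 counts in *sstl-s* LpM and 325 in *SSTL-F* LpM, and 370 in *sstl-s* YM and 281 in *SSTL-F* YM, which are 30.5 and 28.8 CPM at LpM and 30.3 and 28.9 CPM at YM. For MPK6_2 the normalized counts were 50.7 and 53.6 CPM in *sstl-s* and *SSTL-F* at LpM, and 49.7 and 54.4 CPM at YM, where it had 606 and 528 counts. MPK6_1 had 98.3 and 107 CPM at LpM, and 95.1 and 99.6 CPM at YM, from 1160 and 967 counts. In each of these 3 genes the 4 libraries lay close together, and the intervals of both genotype comparisons ended well inside 2-fold.

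MPK14, the kinase of this number on chromosome 5, had 117 CPM in *sstl-s* LpM and 130 in *SSTL-F* LpM, and 124 in *sstl-s* YM and 137 in *SSTL-F* YM, from 1507 and 1331 counts at YM. WJUMK1 had 2230 counts in *sstl-s* LpM and 2385 in *SSTL-F* LpM, and its log2 fold change there was -0.09, smaller in size than its -0.31 at YM. MAP kinase 14 had 845 and 889 counts at LpM and a value of -0.07 (-0.20 to 0.07). MAP kinase 20-1 had 855 and 775 counts at LpM and a value of 0.15 (0.01 to 0.29), opposite in sign to YM. MAP kinase 20-3 had 954 counts in *sstl-s* LpM and 912 in *SSTL-F* LpM, and 870 in *sstl-s* YM and 766 in *SSTL-F* YM, with values of 0.07 (-0.06 to 0.21) at LpM and -0.15 at YM, the YM interval ending just below 0. BIMK2 rested on few reads at YM as well, with 85 counts in *sstl-s* and 60 in *SSTL-F*. MKP1 had 777 counts in *sstl-s* YM and 600 in *SSTL-F* YM, which are 63.7 and 61.8 CPM after normalization.

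**Figure D2:**
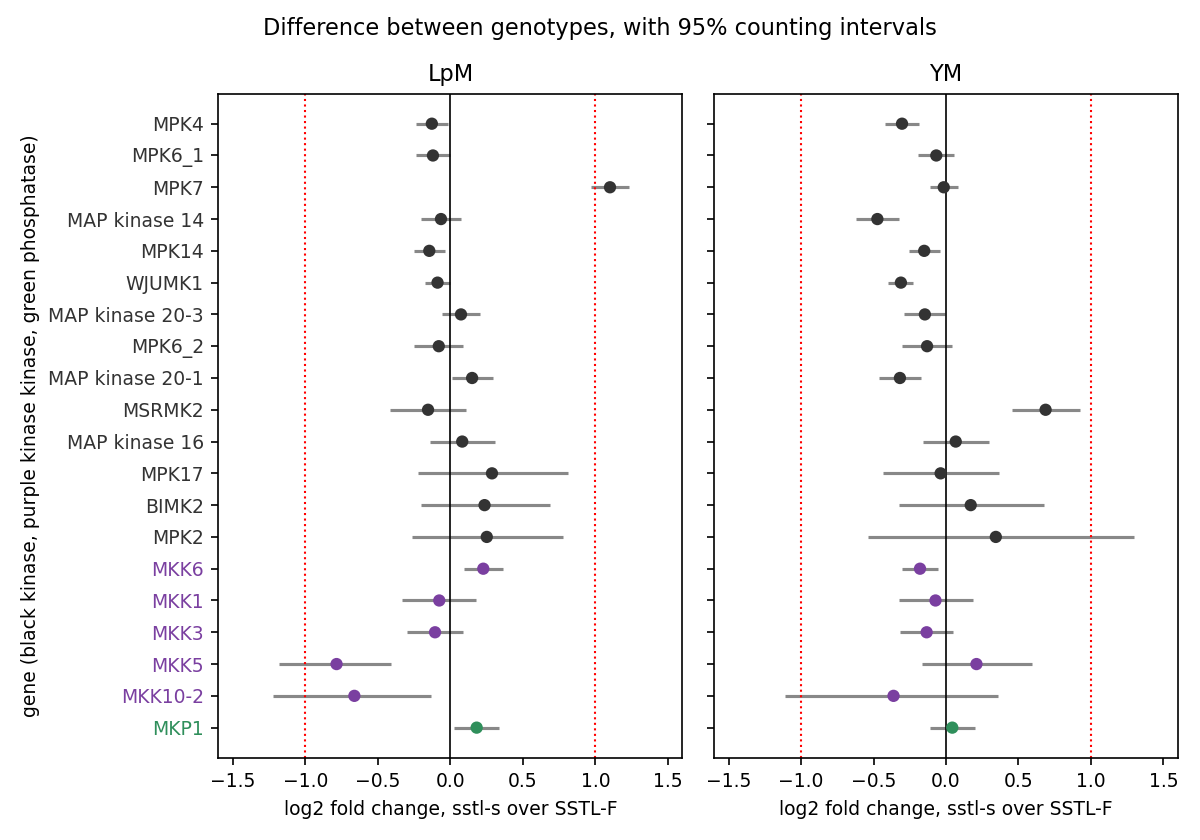
Log2 fold change of *sstl-s* over *SSTL-F* for the 20 expressed members at LpM and at YM, from TMM-normalized counts; points are values, bars are 95% counting intervals and dotted lines mark 2-fold, with kinases in black, kinase kinases in purple and the phosphatase in green. MPK7 at 1.10 in the LpM panel is the only point outside the dotted lines, and MSRMK2 at 0.69 is the highest at YM.

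The second question was how the cascade changed between the stages in each genotype. In *sstl-s*, 1 of the 20 members passed 2-fold on the higher side at LpM over YM and none on the lower side, against 7.39% and 4.51% of all expressed genes. In *SSTL-F*, 1 member passed it on the higher side and 1 on the lower side, against 12.0% and 4.95%. Among genes with 50 counts or more in any library, 7.51% passed it in either direction in *sstl-s* and 12.2% in *SSTL-F*. The median size of the members' stage change was 0.222 in log2 in *sstl-s*, where all expressed genes had 0.257 and those with 50 counts or more 0.212. In *SSTL-F* it was 0.118 for the members, against 0.353 and 0.307. Summed levels of green tissue genes were higher at LpM and those of meiosis genes lower at LpM in both genotypes, and the part of cell content in the stage changes was not tested.

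MPK2, whose name the RefSeq gene table gives to a gene on chromosome 8, was the gene higher at LpM in both genotypes. It had 70 counts in *sstl-s* LpM and 59 in *SSTL-F* LpM, against 29 in *sstl-s* YM and 18 in *SSTL-F* YM. The log2 fold change of LpM over YM was 1.36 (0.75 to 2.07) in *sstl-s* and 1.45 (0.71 to 2.34) in *SSTL-F*, so both LpM libraries lay above both YM libraries. MPK2 remained among the least abundant members even so, with 3.40 RPKM in *sstl-s* LpM and 2.42 in *SSTL-F* LpM. Its call depends on the scale, because on log2(RPKM + 1) it was inside 2-fold in both genotypes.

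MPK7 was past 2-fold lower at LpM in *SSTL-F* and inside the line in *sstl-s*. Its log2 fold change of LpM over YM was -0.24 (-0.33 to -0.14) in *sstl-s* and -1.35 (-1.48 to -1.23) in *SSTL-F*. MPK17 had 73 counts in *sstl-s* LpM against 120 in *sstl-s* YM and 60 in *SSTL-F* LpM against 98 in *SSTL-F* YM, and its values of -0.59 (-1.04 to -0.16) and -0.91 (-1.41 to -0.45) did not reach 2-fold. MKK10-2 had values of 0.64 (-0.01 to 1.35) in *sstl-s* and 0.94 (0.36 to 1.59) in *SSTL-F*. MSRMK2 had values of -0.87 (-1.11 to -0.64) in *sstl-s* and -0.03 (-0.29 to 0.23) in *SSTL-F*, from 234 counts in *sstl-s* LpM against 466 in *sstl-s* YM and 262 in *SSTL-F* LpM against 230 in *SSTL-F* YM. The kinase kinase MKK6 had -0.02 (-0.14 to 0.11) in *sstl-s* and -0.42 (-0.56 to -0.29) in *SSTL-F*. MKK3 had -0.20 and -0.22, and MKK1 had -0.08 and -0.07. The remaining kinases lay between -0.08 and 0.35 in *sstl-s* and between -0.19 and 0.21 in *SSTL-F*.

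**Figure D3:**
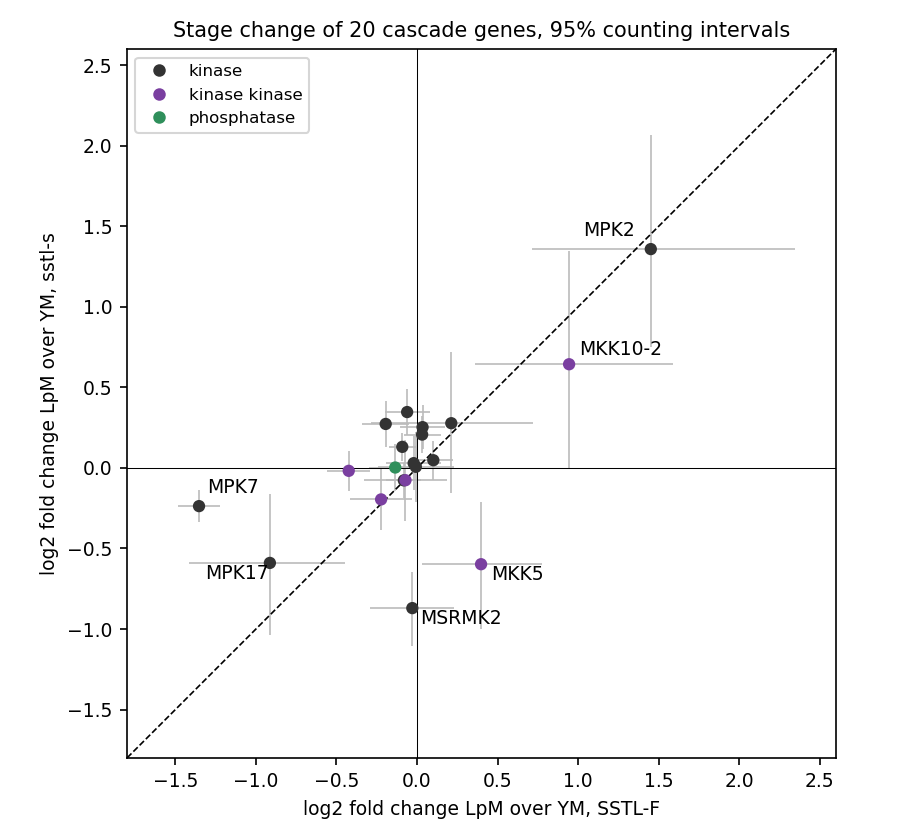
Log2 fold change of LpM over YM in *sstl-s* (vertical axis) against the same in *SSTL-F* (horizontal axis) for the 20 expressed members, with 95% counting intervals and a dashed line of equal change; kinases are black, kinase kinases purple and the phosphatase green. MPK2 lies near the dashed line at 1.36 in *sstl-s* and 1.45 in *SSTL-F*, MPK7 lies above it, and MSRMK2 and MKK5 lie below it.

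The third question was whether the stage change itself differed between the genotypes, taken as the log2 ratio of the change in *sstl-s* to that in *SSTL-F*. MPK7 had a difference of 1.12 (0.96 to 1.28), and it was the only member past 2-fold, while 4.75% of all expressed genes were past 2-fold on the higher side and 10.3% on the lower side. Among genes with 50 counts or more in any library, 8.68% were past it in either direction. The difference for MKK5 was -0.996 (-1.55 to -0.46), just inside the line. MKK5 had 7.93 CPM in *sstl-s* LpM against 12.0 in *sstl-s* YM, and 13.7 CPM in *SSTL-F* LpM against 10.4 in *SSTL-F* YM, with values of opposite sign, -0.60 (-1.00 to -0.21) in *sstl-s* and 0.40 (0.03 to 0.78) in *SSTL-F*. MSRMK2 followed with a difference of -0.84 (-1.20 to -0.49). The other 17 members lay within 0.50 of 0, and the median of the 20 was 0.06, against 0.05 for all expressed genes. MPK7, MKK5 and MSRMK2 differ in which library is set apart: MPK7 was low in *SSTL-F* LpM, MKK5 was lowest in *sstl-s* LpM and MSRMK2 was high in *sstl-s* YM.

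**Figure D4:**
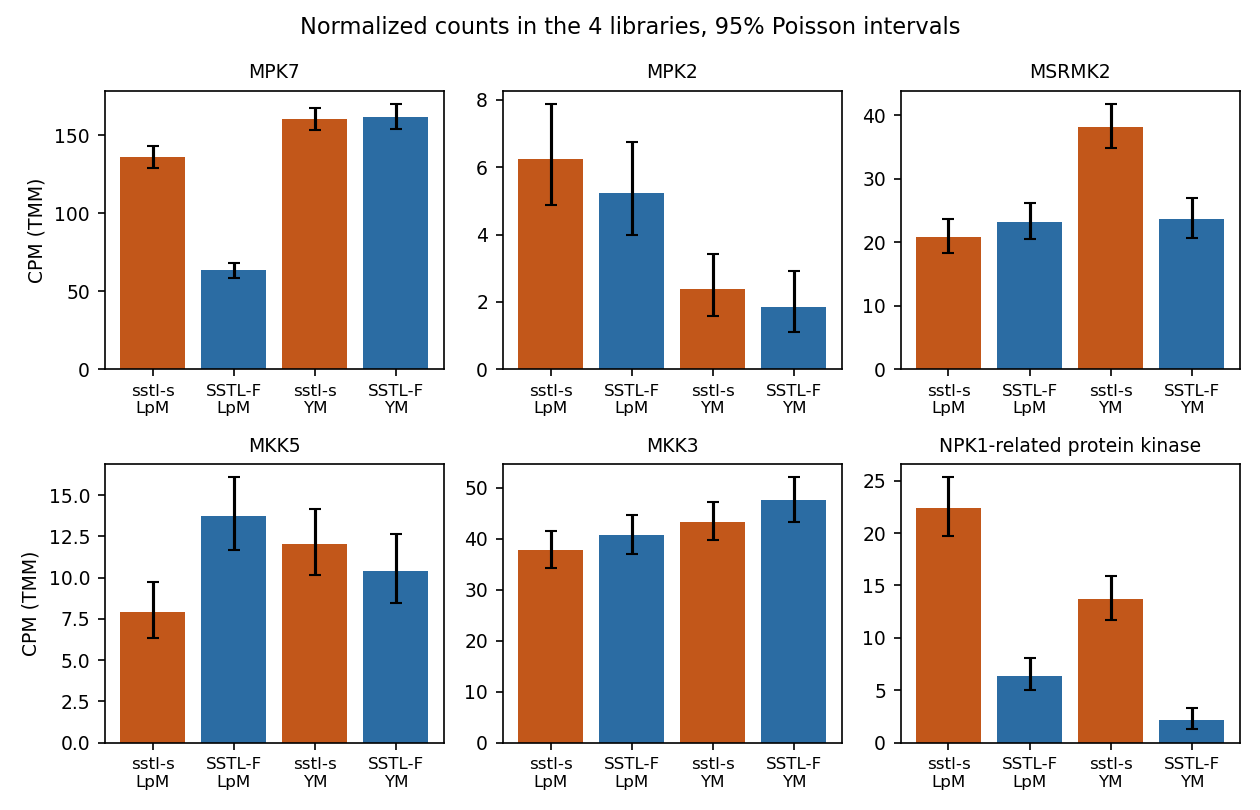
Normalized counts in CPM (TMM) in the 4 libraries for 5 members and for the NPK1-related protein kinase, a gene outside the name rule; bars are single libraries, orange for *sstl-s* and blue for *SSTL-F*, and error bars are 95% Poisson intervals of the count. MPK7 is low in *SSTL-F* LpM at 63.3 CPM, MSRMK2 is high in *sstl-s* YM at 38.2 CPM, and MKK3 varies little around 37.8 to 47.5 CPM.

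The sums over the cascade showed how much of it MPK7 makes up. The 20 expressed members added up to 1246 CPM in *sstl-s* LpM and 1202 in *SSTL-F* LpM, and to 1223 in *sstl-s* YM and 1358 in *SSTL-F* YM. Only with MPK7 did the kinases have the higher sum in *sstl-s* at LpM: all kinases summed to 1021 CPM in *sstl-s* LpM and 985 in *SSTL-F* LpM, and those other than MPK7 to 885 and 921 CPM. At YM the kinases other than MPK7 summed to 828 CPM in *sstl-s* and 946 in *SSTL-F*. The kinase kinases summed to 161 CPM in both genotypes at LpM, and to 172 in *sstl-s* YM and 188 in *SSTL-F* YM.

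To set these genes beside the rest of the cascade, 12 genes with other cascade names (MAPK KINASE KINASE, YODA, SMALL GRAIN 1 and the like) were taken by name, after the files had been seen, and 11 of them were expressed. At each stage 1 of the 11 was past 2-fold higher in *sstl-s* and 0 lower. The shares of all expressed genes were 4.45% higher and 6.58% lower at LpM, and 8.21% and 4.24% at YM. The gene past 2-fold was the NPK1-related protein kinase at both stages. Its namesake in tobacco is a MAP kinase kinase kinase of cytokinesis. The row had 251 counts in *sstl-s* LpM and 72 in *SSTL-F* LpM, and 167 in *sstl-s* YM and 21 in *SSTL-F* YM. These are 22.4 and 6.38 CPM at LpM and 13.7 and 2.16 CPM at YM, so both *sstl-s* libraries lay above both *SSTL-F* libraries. The log2 fold change of *sstl-s* over *SSTL-F* was 1.80 (1.43 to 2.21) at LpM and 2.61 (2.00 to 3.39) at YM, larger than that of any expressed member. The gene is named here because of these values.

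MAPK KINASE KINASE6, whose row is next to that of the NPK1-related gene, had 200 counts in *sstl-s* LpM and 119 in *SSTL-F* LpM, and 91 in *sstl-s* YM and 62 in *SSTL-F* YM. Its log2 fold change of *sstl-s* over *SSTL-F* was 0.75 (0.42 to 1.10) at LpM and 0.22 (-0.26 to 0.71) at YM. The kinase kinase kinases of higher level had values near 0. MAPK kinase kinase epsilon, whose Arabidopsis relatives are needed for viable pollen, had 2152 counts in *sstl-s* LpM and 2225 in *SSTL-F* LpM, and 2825 in *sstl-s* YM and 2338 in *SSTL-F* YM, with values of -0.04 (-0.13 to 0.05) and -0.06 (-0.14 to 0.02). YODA 1, named for the Arabidopsis kinase above MKK4 and MKK5, had 1435 and 1537 counts in *sstl-s* and *SSTL-F* at LpM with a value of -0.09 (-0.20 to 0.01), and 1557 and 1446 at YM with -0.22 (-0.33 to -0.12). SMALL GRAIN 1, the rice MKK4 and the near relative of MKK5, had 157 counts in *sstl-s* LpM and 208 in *SSTL-F* LpM with a value of -0.40 (-0.71 to -0.09), and 169 and 166 at YM with -0.30 (-0.62 to 0.01). For BLAST- AND WOUND- INDUCIBLE MAPK GENE 1, a kinase of the same class as the members that its name keeps outside the rule, the values were 0.19 (0.03 to 0.34) at LpM and 0.03 (-0.10 to 0.16) at YM.

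Upstream of the cascade, the 19 receptor and ligand genes found by name were all expressed, and none was past 2-fold between genotypes at LpM or YM. Of all expressed genes, 4.45% were past it on the higher side and 6.58% on the lower side at LpM, and 8.21% and 4.24% at YM. The medians of the 19 genes were -0.02 at LpM and -0.13 at YM. MULTIPLE SPOROCYTE 1, the receptor kinase that limits the number of cells entering sporogenesis in the rice anther, had 2249 counts in *sstl-s* LpM and 2725 in *SSTL-F* LpM, and 2621 in *sstl-s* YM and 2514 in *SSTL-F* YM, a log2 fold change of -0.27 (-0.35 to -0.19) at both stages. Of 3 further phosphatases found by name, which include the MAP kinase phosphatase IBR5, none was past 2-fold at either stage, beside the same shares of all expressed genes. Their medians were 0.04 at LpM and 0.09 at YM.

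Downstream, targets of the cascade were taken by name. Of 55 expressed WRKY transcription factors, a family with several known substrates of MPK3 and MPK6, at LpM 5 were higher in *sstl-s* by 2-fold or more and 4 lower, and at YM 6 were higher and 3 lower, with medians of -0.09 and 0.17. All expressed genes gave 4.45% higher and 6.58% lower at LpM, and 8.21% and 4.24% at YM. WRKY GENE 53, which rice OsMPK3 and OsMAPK6 phosphorylate, had 347 counts in *sstl-s* LpM and 180 in *SSTL-F* LpM, and 556 in *sstl-s* YM and 218 in *SSTL-F* YM. The values were 0.95 (0.69 to 1.22) at LpM and 1.02 (0.79 to 1.25) at YM, and both genotypes had more at YM. WRKY GENE 71, a defence regulator, had 186 counts in *sstl-s* LpM and 42 in *SSTL-F* LpM, and 354 in *sstl-s* YM and 91 in *SSTL-F* YM, with values of 2.13 (1.67 to 2.67) and 1.62 (1.29 to 1.98). Both WRKY genes were chosen after their values were seen, and others ran the other way. WRKY GENE 80 had 41 counts in *sstl-s* LpM and 132 in *SSTL-F* LpM, a value of -1.65. WRKY GENE 25 had 30 counts in *sstl-s* YM and 73 in *SSTL-F* YM, a value of -1.58.

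Of 4 genes named SPEECHLESS, inducer of CBF expression or SCREAM, names of basic helix-loop-helix factors that MPK3 and MPK6 phosphorylate in Arabidopsis, 3 were expressed. Of these 1 was past 2-fold at LpM, higher in *sstl-s*, and none was past 2-fold at YM. Beside these counts, 4.45% of all expressed genes were higher and 6.58% lower at LpM, and 8.21% and 4.24% at YM. The gene past 2-fold at LpM was the row listed as inducer of CBF expression 1 and basic helix-loop-helix protein 010. It had 90 counts in *sstl-s* LpM and 21 in *SSTL-F* LpM, and 52 in *sstl-s* YM and 70 in *SSTL-F* YM, a log2 fold change of 2.06 (1.41 to 2.87) at LpM and -0.75 (-1.30 to -0.22) at YM. Like MPK7 it was low in *SSTL-F* LpM, with 1.86 CPM there and 4.26 to 8.02 CPM in the other libraries. Another row of that name, basic helix-loop-helix protein 002, had 356 counts in *sstl-s* LpM and 244 in *SSTL-F* LpM, and 500 and 295 at YM. Its values were 0.55 (0.31 to 0.79) at LpM and 0.43 (0.22 to 0.64) at YM, so the rows differ in sign at YM. The search by name for cytokinesis partners of the cascade matched 0 genes.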

How the data were processed

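Single-end 90-base reads were mapped and counted by the authors with CLC Genomics Workbench 11 on RAP-DB gene models. Mapping settings, treatment of reads shared by near-identical genes, and the genome build are not given in the sources used here, so closely related members may share reads. The authors deposited raw counts, RPKM, TPM and a column headed CPM for each library. The deposited CPM column gave a sum that differed between libraries and was treated as a score. The deposited TPM and score columns were only inspected. Results rest on the counts.

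Counts of 4 libraries were normalized by TMM in edgeR 4.0.16 (R 4.3.3), with a prior count of 1 for log2 fold changes. With 1 library per group no model was fitted. Intervals are 95% exact Clopper-Pearson intervals of a gene's share of reads, or exact conditional odds-ratio intervals for the difference of stage changes, and cover counting error only. Sums are of CPM over the effective library size. Members and lists were chosen with earlier results of these data known. All expressed kinases and kinase kinases were named by rule, and MKP1 and the genes outside the name rule were named after their values were seen. Of 14 tapetum markers 12 were matched. Chromosomes were read from the RAP-DB IDs of neighbouring rows, and synonyms were taken from the RefSeq gene table of assembly ASM3414082v1. No sequences were used here. Alternatives were library size alone, DESeq2 1.42.0 size factors, prior counts of 0.25 and 5, log2(RPKM + 1), no count filter or at least 50 counts, and lines of 1.5-fold and 4-fold. The steps were tested on simulated counts in Python 3.11.15 with numpy 2.4.6, pandas 2.3.3 and scipy 1.17.1. Figures were drawn with matplotlib 3.10.9.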

Additional observations from a re-analysis of the deposited data

Results flagged for a closer look

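For 3 members the level changed in opposite directions between the stages in *sstl-s* and in *SSTL-F*, with both counting intervals outside 0. The same count was not made over all expressed genes, so 3 members cannot be called many or few. With 1 library per group the difference was not tested. MKK5 had a log2 fold change of LpM over YM of -0.60 in *sstl-s* and 0.40 in *SSTL-F*, a difference of -0.996. MAP kinase 20-1 had 0.27 in *sstl-s* and -0.19 in *SSTL-F*, a difference of 0.47. WJUMK1 had 0.13 in *sstl-s* and -0.09 in *SSTL-F*, a difference of 0.22, and scaled by library size alone neither of its stage intervals lay outside 0.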

How the results depend on the processing

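MPK7 was past 2-fold between genotypes at LpM under each setting run other than a line of 4-fold, where 0 members were past it. With a line of 1.5-fold, 3 members were past it at LpM and 1 at YM. The share of all expressed genes past 1.5-fold or 4-fold was not computed. The count of members whose stage change differed by 2-fold was 2 in place of 1 with library size alone, with DESeq2 size factors and with a prior count of 0.25, as MKK5 crossed the line. It was also 2 without a count filter, as were the counts at LpM between genotypes and between stages in *sstl-s*, where MKK10-3 with 0 to 7 counts was added. Without the filter, the shares of all genes in these 3 comparisons were 18.8%, 12.4% and 12.8%. On log2(RPKM + 1) the members' median between genotypes was 0.15 at LpM and 0.070 at YM, beside a shift of the median of all expressed genes to 0.19 and 0.11, and MPK2 was lost, leaving 0 members past 2-fold between stages in *sstl-s* and 1 in *SSTL-F*. The shares of all expressed genes past 2-fold between stages on that scale were 4.57% in *sstl-s* and 8.03% in *SSTL-F*. All expressed genes past 2-fold between genotypes then split into 465 higher and 435 lower at LpM, against 1092 and 1615 from TMM counts, and into 927 and 232 at YM, against 2014 and 1040. Of 100 log2 values of single members, 7 moved beyond their counting interval with library size alone and 23 with RPKM. No value past 2-fold changed sign under any setting. Below 2-fold, 18 of the 100 changed sign with library size alone, 8 with DESeq2 size factors and 22 with RPKM, and these values were at most 0.154 in size. With library size alone MPK7 at YM was 0.13 and the members' median there 0.04. No paired analysis was possible because there was 1 library per group with no replicate number, and no library could be left out of a comparison. Counts under about 100 limit MPK2, MPK17, BIMK2 and MKK10-2.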

Other observations

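Further partners of MAP kinases were counted by name. VQ proteins are small proteins that bind WRKY factors, and several are MAP kinase substrates in Arabidopsis. Of 16 that were expressed, 2 were at least 2-fold higher and 3 at least 2-fold lower in *sstl-s* at LpM, and 4 higher and 2 lower at YM, with medians of -0.39 at LpM and 0.56 at YM. The shares of all expressed genes were 4.45% higher and 6.58% lower at LpM, and 8.21% and 4.24% at YM. VQ motif-containing protein 1, named for its values, had 179 counts in *sstl-s* LpM and 366 in *SSTL-F* LpM, and 193 in *sstl-s* YM and 35 in *SSTL-F* YM. Its log2 fold change of *sstl-s* over *SSTL-F* was -1.02 (-1.29 to -0.76) at LpM and 2.11 (1.61 to 2.70) at YM, and of the 4 libraries *SSTL-F* YM was the low one.

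A list of 59 expressed genes was found by the words for ethylene response factor in their names, and may hold other genes of the wider AP2 family. Of these, 4 were at least 2-fold higher and 3 at least 2-fold lower in *sstl-s* at LpM, beside 4.45% and 6.58% of all expressed genes. At YM 17 were higher and 3 lower, beside 8.21% and 4.24% of all expressed genes, with a median of 0.33 against -0.03. Between stages, 6 of the 59 were at least 2-fold higher at LpM than at YM in *sstl-s* and 5 lower, beside 7.39% and 4.51% of all expressed genes. In *SSTL-F* 20 were higher and 4 lower, beside 12.0% and 4.95%.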
